A study of Mus musculus with 12 samples.

Results

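The promoter of Nkx2-2 on mouse chromosome 2 was 1 of 24 named baits in a CaptureC experiment, and its contacts with the rest of that chromosome are described here. In CaptureC, crosslinked chromatin is cut with DpnII and religated, and ligation products that hold a chosen restriction fragment, the bait, are captured with oligonucleotides and sequenced. All contacts whose bait position matched Nkx2-2 in the list of baits were taken, which gave 16 of the 842 contacts in the table. Of these 16 contacts, 11 overlapped a ChIP-seq peak shared by RING1B and PCGF2 and are called PCGF2-site contacts. The other 5 did not, and are called other-site contacts. Contacts entered the table through fragments that CHiCAGO, the interaction caller used by the authors, gave a score of at least 5 in some sample, and all 16 contacts of Nkx2-2 reached this at their summit fragment in 1 or more groups.

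The cells were E14 embryonic stem cells (ESCs) from mouse, with 12 samples in 4 groups, each of 3 replicates. PRC1CPM cells carry Ring1a with I50A and D53K in every sample, an ERT2-Cre at Rosa26, and floxed Ring1b that Cre switches from wild-type to a form with I53A and D56K. One group was left untreated and the other had 800 nM OHT for 72 h, after which PRC1 is made but cannot ubiquitylate histone H2A. PRC1DEG cells express Tir1, lack Ring1a (Ring1a-/-) and carry Ring1b fused to an auxin degron, and the Control line expresses Tir1 alone with Ring1a and Ring1b intact. Both received 0.5 mM auxin for 6 h, which leads to degradation of RING1B in PRC1DEG cells. The PRC1CPM line is 1 clone, and PRC1DEG cells differ from Control cells in Ring1a as well as in the degron, so these parts of the difference cannot be told apart. The table merges the 3 replicates of a group into 1 column, so no value has a spread between replicates and no difference between conditions was tested. Intervals below are 95% Wilson intervals of read shares unless named otherwise. They treat the reads, which CHiCAGO weighted over the merged replicates, as plain counts. They therefore cover counting error at most, and no spread between replicates. Reads also carry no molecular identifiers. The table holds no expression values, so the ESC identity of the samples could not be checked with marker genes.

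Nkx2-2 encodes a homeodomain transcription factor of the NK2 family that specifies ventral neural progenitors and pancreatic endocrine cells. In ESCs it is a classical Polycomb target: canonical PRC1 (cPRC1), which contains PCGF2, occupies its CpG island, and sites of this kind can meet in the nucleus over long distances. PRC1 also ubiquitylates histone H2A at lysine 119, and variant PRC1 complexes recognise CpG-rich DNA. The comparison of PRC1CPM cells before and after OHT asks whether such contacts depend on PRC1 catalysis, and that of PRC1DEG with Control cells whether they depend on PRC1 itself.

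The bait was the DpnII fragment chr2:147185640-147186419 (780 bp, GRCm38), which holds both annotated start sites of Nkx2-2, a gene on the minus strand. It had 50 CpG dinucleotides, or 6.41 per 100 bp. The capture oligonucleotide at its left end, chr2:147185640-147185709, lies in an intron of Nkx2-2, and is shown because it defines the viewpoint, with the DpnII site in capitals on the plus strand.
Nkx2-2 left oligonucleotide: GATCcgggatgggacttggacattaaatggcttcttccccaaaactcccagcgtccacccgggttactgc

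The sequences at the other ends are shown for their CpG content. For 6 contacts the central 200 bp of the summit fragment, the fragment that marks the peak of a contact, are printed on the plus strand of GRCm38 with every CpG in capitals. The first 4 are PCGF2 sites: Foxa2 (chr2:148046023-148046222, intron of the gene), Insm1 (chr2:146220862-146221061, upstream of its start site), Nkx2-4 (chr2:147083940-147084139, coding exon) and a site upstream of Kiz (chr2:146836074-146836273, no coding gene). The last 2 are other sites, an intron of Kiz (chr2:146966667-146966866) and an intron of the antisense RNA gene Nkx2-2os (chr2:147304484-147304683).
Foxa2: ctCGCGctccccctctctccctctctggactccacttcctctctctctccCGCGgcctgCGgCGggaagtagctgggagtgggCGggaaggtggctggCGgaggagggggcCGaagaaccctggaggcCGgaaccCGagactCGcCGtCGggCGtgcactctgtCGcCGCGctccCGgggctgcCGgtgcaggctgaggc
Insm1: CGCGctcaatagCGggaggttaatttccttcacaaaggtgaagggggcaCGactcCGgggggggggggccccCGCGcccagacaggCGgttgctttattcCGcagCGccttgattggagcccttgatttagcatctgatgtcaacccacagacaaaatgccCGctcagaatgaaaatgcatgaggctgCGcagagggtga
Nkx2-4: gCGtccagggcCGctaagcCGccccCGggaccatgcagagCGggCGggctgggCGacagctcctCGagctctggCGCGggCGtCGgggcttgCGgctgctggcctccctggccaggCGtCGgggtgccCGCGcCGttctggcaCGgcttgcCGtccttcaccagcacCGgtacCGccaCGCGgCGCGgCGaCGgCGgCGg
upstream of Kiz: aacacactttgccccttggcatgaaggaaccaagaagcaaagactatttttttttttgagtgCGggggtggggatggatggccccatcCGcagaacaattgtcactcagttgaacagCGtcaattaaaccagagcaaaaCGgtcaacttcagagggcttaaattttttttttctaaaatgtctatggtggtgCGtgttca
Kiz intron, other site: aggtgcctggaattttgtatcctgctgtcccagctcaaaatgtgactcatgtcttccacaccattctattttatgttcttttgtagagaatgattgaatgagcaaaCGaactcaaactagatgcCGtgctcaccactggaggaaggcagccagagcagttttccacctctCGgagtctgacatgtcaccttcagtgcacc
Nkx2-2os, other site: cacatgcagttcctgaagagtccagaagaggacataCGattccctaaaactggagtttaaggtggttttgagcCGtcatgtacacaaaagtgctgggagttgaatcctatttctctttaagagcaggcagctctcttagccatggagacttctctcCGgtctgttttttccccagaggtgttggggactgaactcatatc

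These windows held 20 CpGs at Foxa2, 12 at Insm1, 30 at Nkx2-4 and 5 upstream of Kiz, against 3 at both other sites. The window at Meis2, a PCGF2 site not printed, also held 3. Over the summits of all named baits, the same 200 bp window held a median of 4 CpGs at 129 PCGF2 sites and 2 at 283 other sites, and 27.9% and 1.41% of windows held at least 10. Leaving aside the 3 fragments described next, the 8 remaining PCGF2-site contacts of Nkx2-2 had 1.95 to 12.1 CpGs per 100 bp over their whole length. The 5 other-site contacts had 0.777 to 1.25, below all 8.

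Part of the PCGF2 sites lay in a tandem repeat. Of the 11 PCGF2-site contacts, 3 were single fragments in an intergenic stretch about 30.6 Mb from the bait, at chr2:116551116-116551640, chr2:116555635-116555978 and chr2:116555979-116557130, whose nearest coding start site, that of Tmco5, was 322 to 327 kb away. Their 2021 bp held 2 CpGs. Part of the second fragment (chr2:116555707-116555906, plus strand) is shown with the motif CACAGAG in capitals.
intergenic repeat: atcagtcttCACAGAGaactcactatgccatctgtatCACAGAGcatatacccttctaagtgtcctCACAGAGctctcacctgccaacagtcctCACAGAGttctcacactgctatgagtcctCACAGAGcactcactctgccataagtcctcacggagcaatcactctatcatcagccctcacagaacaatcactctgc

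This motif, searched on both strands, occurred 10, 7 and 14 times in the 3 fragments, or 12.2 to 20.3 times per kb. The sequence matched itself best at an offset of 29 bp, at 53.7% to 69.0% of positions. Among all 414 contacts of named baits, 53.6% held the motif somewhere and the median was 0.181 per kb. Only 4 of them (0.966%) reached the density of these fragments, and the fourth was a contact of the Hoxd10 bait that began 1.3 kb beyond the last of them. No other Nkx2-2 contact exceeded 2.41 per kb. Of all 412 summit windows of 200 bp, 9.22% held the motif and 4 (0.971%) held it at least 3 times. Whether reads in this repeat can be placed uniquely was not tested, so the counts, medians and ranks below are also given without these 3 fragments.

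Depth was high near the bait and low far from it. The 16 contacts together held 4404 weighted reads in untreated PRC1CPM cells and 1871 with OHT, and 4182 in Control against 1673 in PRC1DEG cells. At the 6 PCGF2-site contacts within 5 Mb the median was 539 reads in untreated cells, whereas the 5 beyond 5 Mb had a median of 4. The authors divided reads by the number that aligned to captured promoters, separately in each experiment, so a level in one system cannot be set against a level in the other.

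Nkx2-2 contacted the loci of 6 other developmental transcription factors at PCGF2 sites. Near the bait these were Nkx2-4, its NK2-family neighbour (102 kb), Pax1, a paired-box regulator of the sclerotome (181 kb), Foxa2, a forkhead factor of the floor plate and endoderm (855 kb), and Insm1, a zinc-finger factor of neuroendocrine cells (965 kb). Far from it were Meis2, a homeodomain cofactor of Hox proteins (31.1 Mb), and Pax6, a paired-box regulator of eye and forebrain (41.5 Mb). A seventh locus, 351 kb away and 12.8 kb upstream of Kiz, overlapped the long noncoding RNA gene Gm14114 and no coding gene. Of these loci, 4 belong to regulators of the ventral neural tube or endocrine pancreas (Foxa2, Pax6, Insm1 and Nkx2-4). Among 36 further developmental regulators of the chromosome only Meis2 was listed.

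The Foxa2 contact spanned chr2:148030001-148051985, a region of 49 fragments that held the Foxa2 start sites. It had 19.0 weighted reads per fragment in untreated PRC1CPM cells and 4.45 with OHT, and 18.5 in Control against 2.35 in PRC1DEG cells. In the reference libraries this was close to an other-site contact inside Kiz at 224 kb (23.1 and 17.6 reads per fragment), although Foxa2 lies 855 kb away. The score of its summit was the highest of all 130 PCGF2-site contacts of the named baits in untreated cells, at 35.1, and it was 3.76 after OHT. In Control cells that score was 31.6, which ranked 4 of 130, and in PRC1DEG cells it was 0. Normalized reads at Foxa2 were 25.6% of the untreated level after OHT, a log2 difference of -1.90 (interval -2.18 to -1.75), and 11.9% of the Control level in PRC1DEG cells, a log2 difference of -2.95 (-3.35 to -2.79). The log2 values carry a pseudocount added to the mean per fragment, while percentages and intervals come from the reads alone. At contacts with few reads per fragment the log2 value can therefore lie near the upper end of its interval.

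The Pax1 contact (chr2:147358440-147375111, 42 fragments) held the most reads of all 16 in both reference libraries. In both treated libraries the contact inside Kiz, described below, held more. There were 1302 weighted reads in untreated PRC1CPM cells and 389 with OHT, and 1365 in Control against 256 in PRC1DEG cells. After normalization 32.7% remained with OHT, and the log2 change was -1.59 (interval -1.78 to -1.45). In PRC1DEG cells 17.5% of the Control level remained, and the log2 change was -2.47 (-2.71 to -2.32). Both reference libraries were above their treated partner by more than counting error.

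Insm1 (chr2:146213186-146229118, 29 fragments) had 415 reads in untreated cells and 132 with OHT, and 348 in Control against 110 in PRC1DEG cells. The log2 change at Insm1 was -1.47 (interval -1.81 to -1.24) after OHT and -1.70 (-2.07 to -1.45) in PRC1DEG cells. The region also holds a start site of Cfap61, whose product is an axonemal protein. Insm1 was one of the 2 PCGF2-site contacts that stayed above a score of 5 after OHT, at 6.83, from 16.7 in untreated cells.

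The site upstream of Kiz (chr2:146827726-146843053, 32 fragments) showed the smallest differences of the PCGF2-site contacts within 5 Mb. Weighted reads were 663 in untreated cells and 377 with OHT, and 653 in Control against 307 in PRC1DEG cells, which left 62.2% after OHT and 43.9% in PRC1DEG cells. The log2 changes of -0.67 (interval -0.87 to -0.50) and -1.17 (-1.38 to -0.99) were both below 0. Its summit score was 6.41 before and 7.39 after OHT, so that the call was kept there, whereas Control cells gave 11.6 and PRC1DEG cells 0.663.

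Nkx2-4 was listed as 2 adjoining fragments, chr2:147083399-147083840 and chr2:147083841-147084238, which lie in the last part of the gene, 1.61 and 1.21 kb from its start site. The first had 73 reads in untreated cells and 26 with OHT, and 67 in Control against 28 in PRC1DEG cells, and the second 71, 24, 79 and 30. These are the highest read densities of any Nkx2-2 contact in both reference libraries. Joined into 1 locus, they kept 38% of their level after OHT and 37.1% in PRC1DEG cells. The log2 changes were -1.39 (interval -1.86 to -0.94) and -1.42 (-1.87 to -0.99), and the intervals of the systems overlapped.

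**Figure D1:**
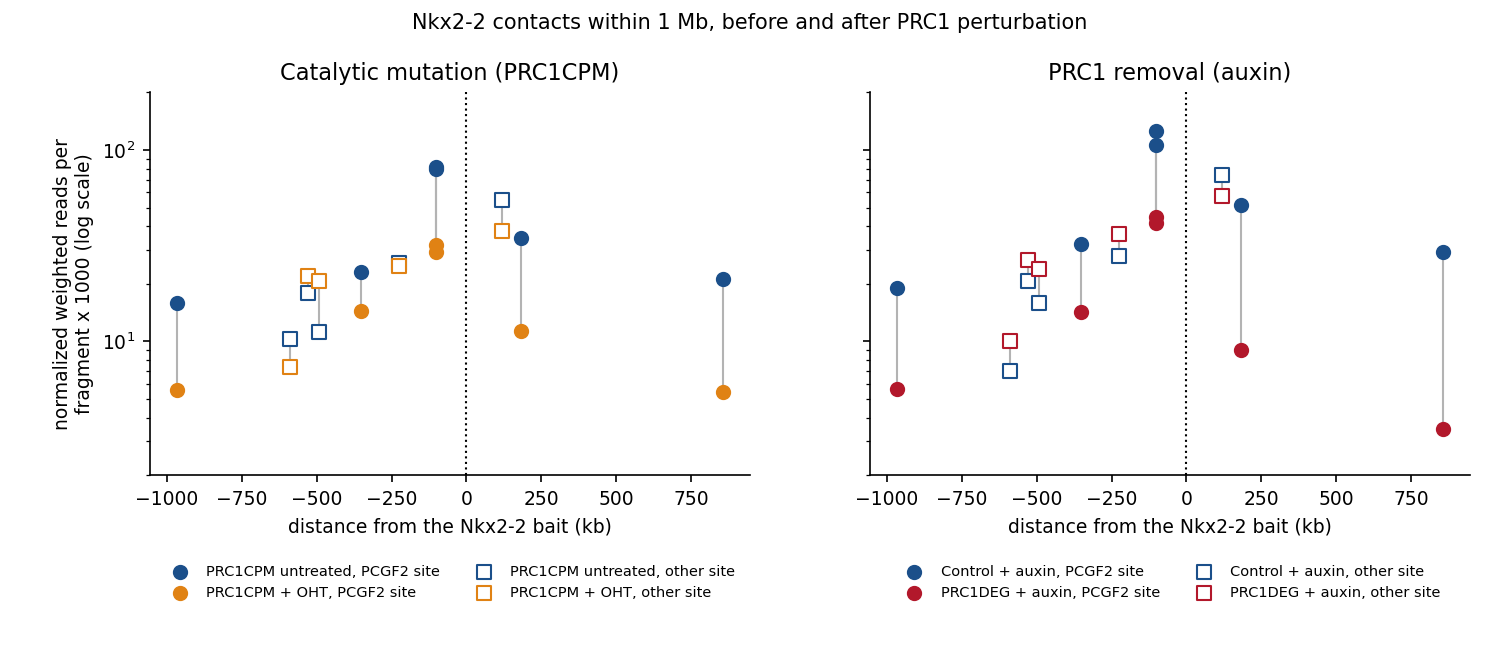
Normalized weighted reads per fragment (times 1000, log axis) of the 11 Nkx2-2 contacts within 1 Mb against signed distance from the bait in kb, with filled circles for PCGF2 sites and open squares for other sites. Blue marks the reference library of each system and orange or red the treated one, joined by a grey line, and the circles at Foxa2 span 21.2 to 5.43 after OHT and 29.4 to 3.49 in PRC1DEG cells.

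Beyond 5 Mb the contacts rested on few reads. Pax6 (chr2:105666283-105677380, 29 fragments) had 55 reads in untreated cells and 17 with OHT, and 44 in Control against 7 in PRC1DEG cells. That left 33.8% and 14.9%, and both intervals lay below 0 (log2 -2.34 to -0.79 and -3.87 to -1.63). Meis2 (chr2:116062001-116069354, 12 fragments) had 32, 7, 14 and 6 reads. Its level after OHT was 23.9% of that in untreated cells (interval of the log2 ratio -3.21 to -0.92), but in PRC1DEG cells the interval of -2.65 to 0.01 reached 0.

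The repeat fragments had 9 reads in all in untreated cells and 2 with OHT, and 12 in Control against 0 in PRC1DEG cells. Against a floor of 3 weighted reads, the fragments with 4 and 6 reads in Control cells were at least 1.43-fold and 2.14-fold lower in PRC1DEG cells. For the fragment with 2 reads in Control cells no fold is given. Taken as 1 locus, the 3 were at least 4.28-fold lower in PRC1DEG cells, with the same floor for the locus. These folds follow from the floor and leave out counting error. The upper limits of the log2 intervals were -0.16 and -0.74 for the fragments with 4 and 6 reads, and -1.74 for the locus.

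All 11 PCGF2-site contacts had been called in a reference library, 6 of them in 1 reference library alone, and a contact listed only because it was high there is likely to be lower elsewhere, so the counts that follow are a description. Over these 11 contacts, normalized reads were lower after OHT at every contact, and 9 were lower by more than 2-fold. Of all 414 contacts of the named baits, 18.4% were, and of the 130 at PCGF2 sites 46.9%. In PRC1DEG cells all 11 were lower by more than 2-fold than in Control, against 26.8% of all contacts and 76.9% of those at PCGF2 sites. The interval lay below 0 at 8 of the 11 contacts after OHT, against 22.9% of all contacts and 56.9% of those at PCGF2 sites. In PRC1DEG cells it did so at 9, against 26.1% and 69.2%. With every value under 3 weighted reads raised to 3, the counts past 2-fold were 7 after OHT and 9 in PRC1DEG cells, and the median log2 change was -1.35 in each. The 3 contacts whose interval reached 0 after OHT were the repeat fragments. In PRC1DEG cells they were Meis2 and 1 of the repeat fragments. Without the repeat, 7 of 8 contacts were lower by more than 2-fold after OHT and 8 of 8 in PRC1DEG cells. Their median log2 changes were -1.45 and -1.59. All 130 PCGF2-site contacts, with the repeat fragments included, had medians of -0.91 and -1.79. Joining adjoining fragments into 8 loci gave medians of -1.53 and -1.83. The 284 contacts of named baits outside PCGF2 sites had medians of -0.17 and 0.09, and relative to these the median at the 11 contacts was -1.30 after OHT and -2.06 in PRC1DEG cells.

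Other-site contacts stayed nearer to their reference level. Kiz encodes a centrosomal protein, and the contact inside it (chr2:146956099-146967084, 21 fragments) had 485 reads in untreated cells and 429 with OHT, and 370 in Control against 515 in PRC1DEG cells. The log2 change was -0.05 (interval -0.24 to 0.14) after OHT and 0.37 (0.19 to 0.57) in PRC1DEG cells, the only Nkx2-2 contact whose interval lay above 0. The contact inside Nkx2-2os (chr2:147303758-147308385, 6 fragments) had 296, 185, 280 and 231 reads. It was lower in both systems, by -0.55 (-0.81 to -0.29) and -0.37 (-0.63 to -0.13), and was the only other site whose interval lay below 0.

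The remaining 3 other sites lay in intergenic DNA between Ralgapa2 and Kiz. At chr2:146597462-146599304 there were 46 reads in untreated cells and 30 with OHT, and 22 in Control against 34 in PRC1DEG cells. At chr2:146656489-146657317 reads were 16, 18, 13 and 18, and at chr2:146692263-146694963 they were 10, 17, 10 and 16. All 6 intervals included 0, so no change was detectable at this depth. None of the 5 other sites was lower by more than 2-fold in either system. Of the 284 other-site contacts of the named baits, 5.28% were after OHT and 3.87% in PRC1DEG cells.

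**Figure D2:**
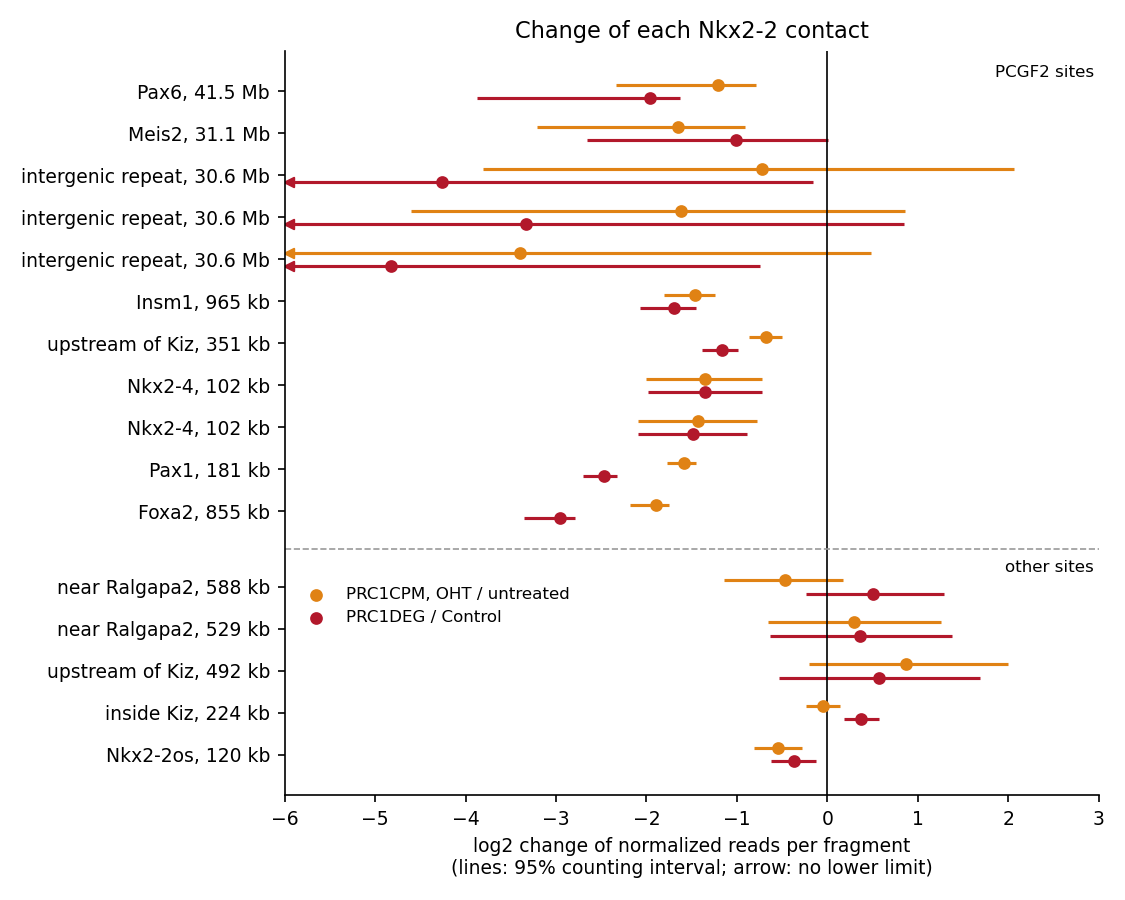
Log2 change of normalized reads per fragment for each of the 16 Nkx2-2 contacts, orange for OHT against untreated PRC1CPM cells and red for PRC1DEG against Control, with 95% counting intervals as lines and an arrow where no lower limit exists. All 11 PCGF2-site points lie left of 0 in both systems, with Foxa2 at -1.90 and -2.95, whereas the 5 other-site points lie between -0.55 and 0.87.

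Pairs of contacts within the same libraries set PCGF2 sites against other sites without any normalization. Nkx2-4 and the Nkx2-2os site lie 102 and 120 kb from the bait on opposite sides. The ratio of their reads per fragment was 1.46 in untreated cells and 0.811 with OHT, and 1.56 in Control against 0.753 in PRC1DEG cells. The log2 change of that ratio was -0.85 (exact conditional interval -1.41 to -0.29) and -1.05 (-1.59 to -0.53). Nkx2-4 thus had more reads per fragment than the Nkx2-2os site in the reference libraries and fewer in both treated ones.

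The sites upstream of Kiz and inside it, 351 and 224 kb away on the same side, gave ratios of 0.897 in untreated cells and 0.577 with OHT, and 1.16 in Control against 0.391 in PRC1DEG cells, and the log2 change of the ratio was -0.64 (-0.90 to -0.37) and -1.56 (-1.85 to -1.28). For Foxa2 against the site inside Kiz the ratio was 0.823 in untreated cells and 0.218 with OHT, and 1.05 in Control against 0.0957 in PRC1DEG cells. The log2 change of this ratio was -1.92 (-2.21 to -1.63) and -3.45 (-3.81 to -3.11). For Insm1 against the farthest other site, 965 and 588 kb away, the log2 change of the ratio was -1.03 (-1.79 to -0.26) and -2.28 (-3.19 to -1.40). In all 4 pairs compared, the ratio was lower in the treated library beyond counting error. The pairs are not independent, since Foxa2 and the site upstream of Kiz were both set against the site inside Kiz. Normalized reads at that site were themselves higher in PRC1DEG cells (log2 0.37), which lowers both ratios. The PCGF2-site members had also been called in a reference library, so the pairs are a description. By reads per fragment, Foxa2 ranked 7 of 16 contacts in untreated and 6 of 16 in Control cells, and 11 of 16 in both treated libraries.

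Of the reads at the listed Nkx2-2 contacts, a smaller share fell in PCGF2 sites in both treated libraries. Reads of the bait outside these contacts are not included. All 11 PCGF2-site contacts had been called in a reference library, so a lower share in the treated libraries can be partly built into the list. The shares and sums that follow are therefore a description. PCGF2 sites took 80.6% of the reads at Nkx2-2 contacts in untreated cells (interval 79.4% to 81.8%) and 63.7% after OHT (61.5% to 65.9%). In Control cells the share was 83.4% (82.2% to 84.5%) and in PRC1DEG cells 51.3% (48.9% to 53.7%). Summed over the 11 contacts, 36.7% of normalized reads remained after OHT and 23.0% in PRC1DEG cells, against 87.0% and 109% at the 5 other sites. Without the repeat the sums were 36.7% and 23.1%.

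**Figure D3:**
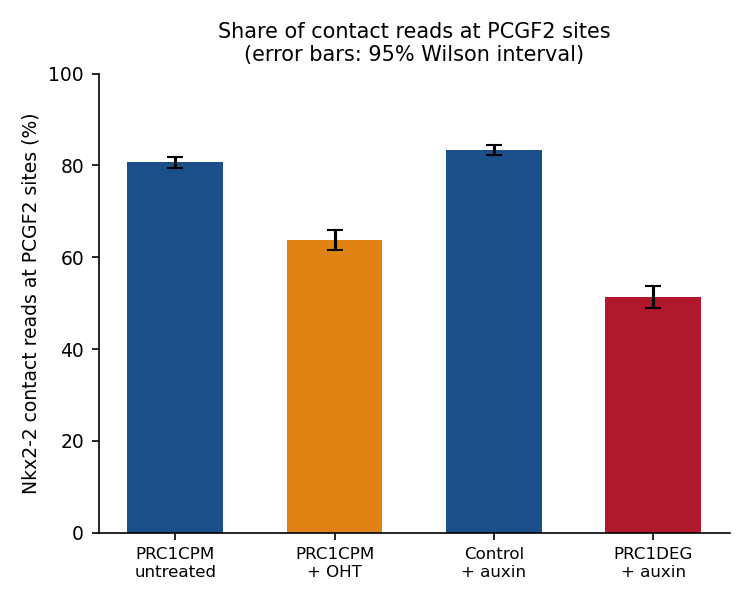
Percent of all weighted reads at the 16 Nkx2-2 contacts that fell in the 11 PCGF2-site contacts, 1 bar per group, with 95% Wilson intervals as error bars. The share is 80.6% in untreated cells and 63.7% after OHT, and it is 83.4% in Control and 51.3% in PRC1DEG cells.

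Reads were lower across whole regions and not at the summits alone. In the 4 wide PCGF2-site contacts within 1 Mb (Foxa2, Pax1, Insm1 and the site upstream of Kiz), the summit held 2.40 to 3.66 times as many reads as the mean of the remaining fragments in the reference libraries, and 1.59 to 3.11 times as many in the treated ones. Away from the summit, the log2 difference in the Foxa2 region was -1.96 (interval -2.18 to -1.74) after OHT and -3.07 (-3.35 to -2.78) in PRC1DEG cells. It was -1.59 and -2.49 at Pax1, -1.48 and -1.74 at Insm1, and -0.66 and -1.15 upstream of Kiz, with all intervals below 0. At the Foxa2 summit alone there were 57 reads in untreated cells and 12 with OHT, and 44 in Control against 5 in PRC1DEG cells. Summits mark the peak of a contact, so a ratio above 1 in the reference libraries is built into their choice.

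Calls at the summit are given as a description, since the contacts were listed for a high score in some library. Of the 11 PCGF2-site contacts, 8 had a score of at least 5 in untreated cells and 2 after OHT, against 63.3% and 30.0% of all 414 contacts. In Control cells 8 were called and in PRC1DEG cells 0, against 23.4% and 7.97%. Of the 130 PCGF2-site contacts of the named baits, 66.2% were called in untreated cells and 11.5% after OHT. The shares of these 130 were 53.1% in Control and 2.31% in PRC1DEG cells. Only 5 of the 11 Nkx2-2 contacts were called in both reference libraries (Insm1, the site upstream of Kiz, 1 Nkx2-4 fragment, Pax1 and Foxa2). Pax6 scored 7.51, Meis2 15.0 and 1 repeat fragment 9.50 in untreated cells and all 3 scored 0 in Control cells, whereas the other 2 repeat fragments were called in Control cells, at 8.09 and 18.0, and not in untreated ones. These far calls rested on summits of 4 to 6 reads. Without the repeat, 7, 2, 6 and 0 of 8 contacts were called in the groups in the same order. Of the 5 other sites, 3 were called in untreated cells and 2 with OHT, and 1 in Control and 1 in PRC1DEG cells, the last being the site inside Kiz at 6.28. Of the 284 other-site contacts of the named baits, 62.0% were called in untreated cells and 38.4% with OHT. In Control cells 9.86% were, and in PRC1DEG cells 10.6%.

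**Figure D4:**
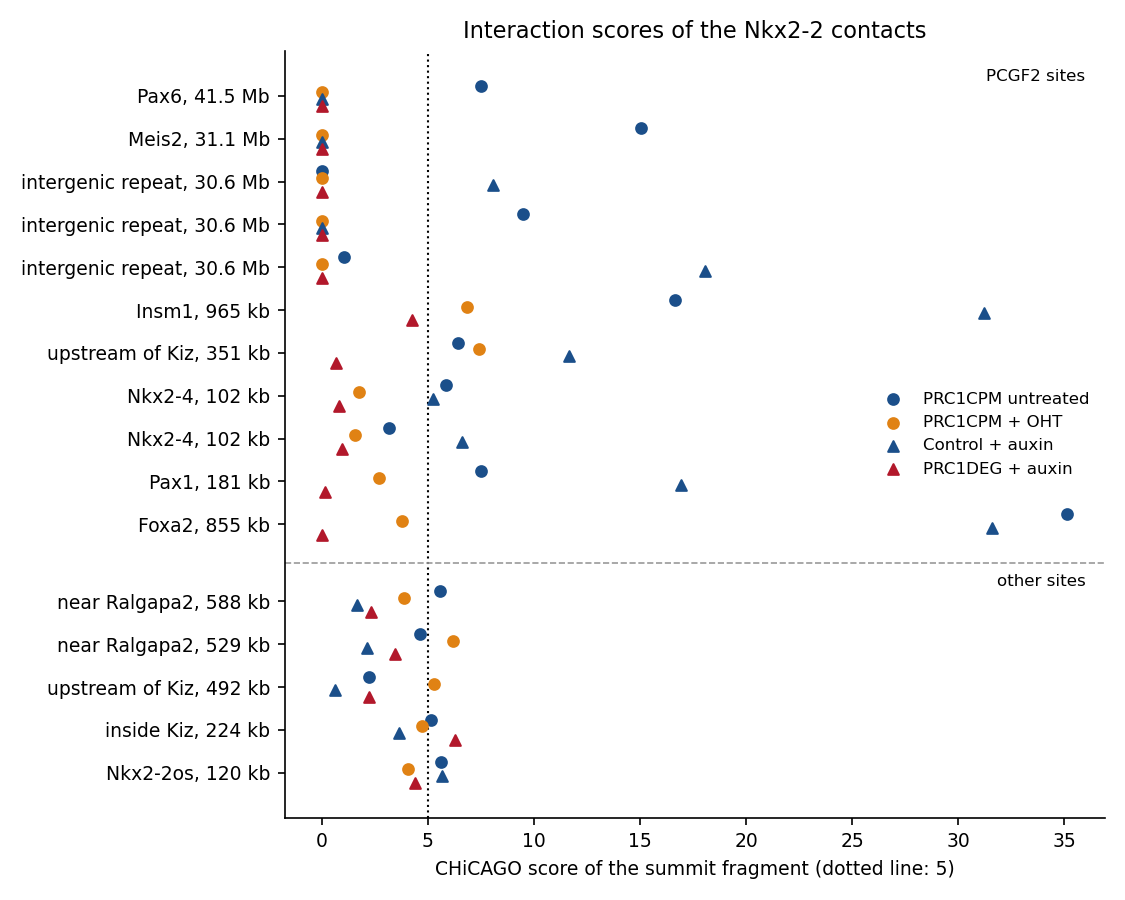
CHiCAGO score of the summit fragment of each Nkx2-2 contact in the 4 groups, circles for PRC1CPM and triangles for auxin libraries, with the call threshold of 5 as a dotted line. Foxa2 stands at 35.1 and 31.6 in the reference libraries and at 3.76 and 0 in the treated ones, while other sites stay between 0.604 and 6.28.

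The systems differed in size at some loci. At 3 of the 11 PCGF2-site contacts (Foxa2, Pax1 and the site upstream of Kiz) the interval in PRC1DEG cells lay wholly below that after OHT, whereas those of Insm1, Nkx2-4, Pax6, Meis2 and the repeat overlapped. The change in PRC1DEG cells was lower than that after OHT at 9 of 11 contacts, with a median difference of -0.75 (-0.20 with the pseudocount 10 times larger). Without the repeat fragments, which had 0 reads in PRC1DEG cells, it was lower at 6 of 8 with a median difference of -0.36. It was lower at 1 of 5 other sites, with a median difference of 0.17. Over all named baits it was lower at 111 of 130 PCGF2-site contacts, with a median difference of -0.71. At their 284 other sites it was lower at 98, with a median of 0.20, so Nkx2-2 was near the general level. The treatments differed in agent and duration and were made in separate experiments, so this difference between systems cannot be told apart from one between experiments.

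Beside other baits, Nkx2-2 was near one end of the range after OHT. Among the 16 baits with at least 3 PCGF2-site contacts, the median log2 change of its contacts ranked 2 after OHT, counted from the lowest and next to Nptx1 at -1.65, and 7 in PRC1DEG cells. With the repeat fragments taken out of Nkx2-2 alone, its ranks were 2 and 12. The Hoxd10 bait kept its contact next to these fragments, which has a like motif density. Among baits on the same chromosome, medians after OHT and in PRC1DEG cells were -1.0 and -1.95 for Dlx2, -1.16 and -2.02 for Hoxd10, and -1.22 and -2.02 for Sp5. Gata5 had fewer than 3 PCGF2-site contacts. No contact of another bait on chromosome 2 overlapped the Nkx2-2 bait, and 1 of their 81 contacts shared a target with it, a Hoxd10 contact inside the Pax6 region with 2 reads in untreated cells and 1 with OHT, and 4 in Control against 0 in PRC1DEG cells.

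The contact most like Foxa2 in its pair of changes, among the 129 others at PCGF2 sites, was that of the Nkx2-1 bait with Foxa1 on chromosome 12. Next came a repeat fragment of Nkx2-2 and an Nkx2-1 contact near Osr1, each with at most 4 reads. Nkx2-1 encodes an NK2-family factor of the ventral forebrain, lung and thyroid, and its chromosomal surroundings are related by ancestry to those of Nkx2-2: Foxa1 is a paralogue of Foxa2, Pax9 of Pax1 and Insm2 of Insm1, and Nkx2-9 belongs to the NK2 family like Nkx2-4. Foxa1 was thus chosen by these values, and the other loci after theirs were seen, so all are descriptions.

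Each was a PCGF2-site contact of Nkx2-1, and no pair was tested for a difference. Foxa1 lay 1000.3 kb from its bait and Foxa2 855 kb, Pax9 157 kb and Pax1 181 kb, Nkx2-9 76.9 kb and Nkx2-4 102 kb, and Insm2 937 kb and Insm1 965 kb. Foxa1 had 884 reads in untreated cells and 268 with OHT, and 676 in Control against 71 in PRC1DEG cells. Its log2 changes were -1.51 (interval -1.79 to -1.40) and -3.02 (-3.70 to -3.00), beside -1.90 (-2.18 to -1.75) and -2.95 (-3.35 to -2.79) at Foxa2. Without the pseudocount that these log2 changes carry, Foxa1 kept 33.1% after OHT and 9.81% in PRC1DEG cells, beside 25.6% and 11.9% at Foxa2.

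Pax9, the most heavily read of these loci, had 2502, 1030, 2451 and 382 reads. It kept 45.0% after OHT and 14.6% in PRC1DEG cells, where Pax1 kept 32.7% and 17.5%, and the log2 intervals of the pair did not overlap after OHT (-1.26 to -1.05 at Pax9). Nkx2-9 kept 38.1% and 28.4%, beside 38% and 37.1% at Nkx2-4. Insm2 rested on 1 fragment with 8, 4, 5 and 5 reads, and both its intervals included 0, so that no change was detectable there, whereas both intervals at Insm1 lay below 0.

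**Figure D5:**
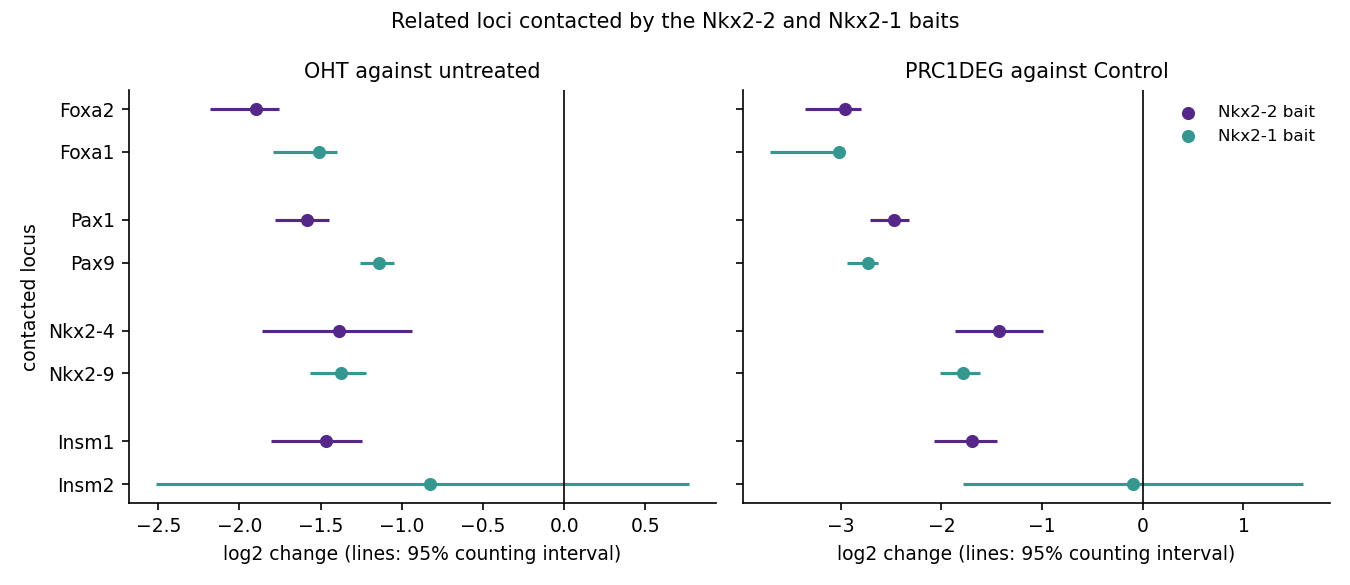
Log2 change of normalized reads per fragment at related loci contacted by the Nkx2-2 bait (purple) and the Nkx2-1 bait (green), OHT against untreated PRC1CPM cells on the left and PRC1DEG against Control on the right, with 95% counting intervals as lines. Foxa2 and Foxa1 lie at -1.90 and -1.51 after OHT and at -2.95 and -3.02 in PRC1DEG cells, a likeness by which Foxa1 was chosen, and the wide lines belong to Insm2.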

How the data were processed

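CaptureC of 12 samples had been aligned and filtered by the authors with HiCUP and Bowtie2 (mm10 per the labels, versions not given in the sources used here), and scored with CHiCAGO from merged replicates. The deposited signal values are weighted reads divided by reads on captured promoters and by their number, and the deposited score values are CHiCAGO scores. The methods state that contacts closer than 10 DpnII fragments were joined, but adjoining fragments at Nkx2-4 and in the repeat are separate in the table. Other deposited columns give positions and overlap with RING1B and PCGF2 peaks.

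Values were divided by the number of fragments, and log2 ratios used a pseudocount of 0.00035, the smallest non-zero mean per fragment among the 414 contacts. Intervals had none. Weighted reads were recovered from the value of 1 read in each library (100% whole within a tolerance of 0.1). The auxin columns held 2 such values, and Nkx2-2 belonged to the set with 18 of 24 named baits. The bait began with GATC in GRCm38 (RefSeq assembly), and both its oligonucleotides matched there. Distances run between centres. Genes came from coding transcripts of GENCODE M21 (basic), and a contact was named by a start site inside it, or otherwise the nearest. The other-site contacts inside Kiz and inside Nkx2-2os are instead described by the gene they lie in. Their nearest coding start sites were those of Xrn2 (45.9 kb) and Pax1 (56.6 kb). PCGF2-site contacts were all named. Other sites and comparison baits were named by reads, intervals, family and chromosome. Functions were tested on simulated data. Python 3.11.15 and SciPy 1.17.1 were used. Members and lists were chosen with earlier results of these data known. The alternatives without the repeat and with joined fragments were added after seeing the data. The remainder of 1 gene list is not reported here.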

Additional observations from a re-analysis of the deposited data

How the results depend on the processing

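No paired analysis was possible because each group's 3 replicates were pooled in 1 column that carries no replicate number, and no replicate could be left out. Over 93 alternative values of 21 results, 77 stayed within the interval of the reported value or, for counts, within 1.5 times. No direction reversed, but counts, shares and scores have no sign to change. For medians over contacts the interval was a 95% order-statistic interval, which takes contacts as the unit and is wide. At PCGF2 sites it ran from -1.90 to -0.72 after OHT and from -4.26 to -1.17 in PRC1DEG cells. At the 5 other sites it was the full range. Shares limited to contacts beyond 100 kb equal the reported ones, since every contact lies there. These totals therefore say little about how firm the values are. The median log2 change at PCGF2 sites ranged from -1.55 to -0.97 after OHT and from -2.51 to -1.31 in PRC1DEG cells. At a limit of 3-fold, 5 PCGF2-site contacts were lower after OHT and 7 in PRC1DEG cells. Shares of all 414 contacts were not computed at this limit, with the floor of 3 reads or at the score limits below. Those counts are therefore only a description of the 11 contacts. The Foxa2 change after OHT was -1.47 with a pseudocount 10 times larger, -1.73 centred on contacts outside PCGF2 sites and -1.70 scaled to the Nkx2-2 contacts there. In PRC1DEG cells the larger pseudocount gave -2.23. With the score threshold at 10, there were 3 calls in untreated and 5 in Control cells and 0 after OHT, with it at 3 there was 1 in PRC1DEG cells, and a mean score of at least 5 left 4 in untreated cells and 0 with OHT. Without Pax1, PCGF2 sites took 72.5% of reads at the remaining Nkx2-2 contacts in untreated cells and 54.2% with OHT. The share was 75.3% in Control against 42.6% in PRC1DEG cells. Depth limits the far contacts and the 3 intergenic other sites.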
